A study of Mus musculus with 6 samples.

Results

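The collagen genes of mouse mammary epithelial cells were examined in 3 Glis2+/+ and 3 Glis2-/- females. They were taken as all genes whose symbol reads Col, a number, the letter a and a number, with at least 10 counts in at least 3 libraries. Of 54418 gene identifiers in the count table, 54096 had a symbol, 44 had a symbol of this form, and all 44 passed the count threshold. The mice were C57BL/6, 4 weeks old, and the Glis2-/- mice carried a germline deletion, so that every cell of the animal, the stroma included, lacked the intact gene. Glands were digested with collagenase and hyaluronidase, and cells were sorted after staining for TER-119, CD31 and CD45, which mark blood and endothelial cells, and for CD24 and CD49f, which separate mammary epithelial populations. Each mouse gave 1 library of ribosome-depleted total RNA. The labels number the mice within each genotype and do not say whether same-numbered mice were paired.

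Collagens are secreted or membrane-bound proteins of 3 chains wound into a triple helix, in which glycine recurs at regular steps. Fibrillar collagens (types I, II, III, V, XI, XXIV and XXVII) form the fibrils of the stroma, FACIT collagens lie on the surface of fibrils, type IV collagens form the sheet of the basement membrane, and type VI collagen forms beaded filaments near cells. In the mammary gland the basal layer of the epithelium rests on a basement membrane, to which collagen XVII ties it through hemidesmosomes and collagen VII ties the stroma. The fibrillar collagens of the gland are made for the most part by fibroblasts.

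The repeat of the triple helix can be read in the exons. In the GRCm38 annotation, 1224 of the 1916 internal coding exons of the 44 genes (63.9%) had a length that is a multiple of 9 bases, the length that codes for 1 repeat of the helix, glycine and its next residues, against 13.7% of the internal coding exons of 21822 other protein-coding genes. Exons of exactly 54 bases made up 24.5% of the collagen exons and 0.444% of the others. The share of multiples of 9 was 83.9% in the 11 fibrillar genes, 55.1% in the 9 FACIT genes and 47.2% in the 6 type IV genes. For 6 genes that differ in their values below, 1 exon of 54 bases is printed, read from the reference transcripts in the direction of the gene, with the first codon of each repeat of 9 bases, which codes for glycine, in capitals. The exons lie at chr11:94939904-94939957 (+ strand, coding exon 8 of 51) for Col1a1, chr1:45325360-45325413 (+, exon 6 of 51) for Col3a1, chr15:97998545-97998598 (- strand, exon 6 of 54) for Col2a1, chr4:121043696-121043749 (+, exon 5 of 32) for Col9a2, chr9:108967172-108967225 (+, exon 48 of 118) for Col7a1 and chr8:11245211-11245264 (-, exon 7 of 52) for Col4a1.
Col1a1: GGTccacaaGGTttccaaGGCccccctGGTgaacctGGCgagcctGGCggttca
Col3a1: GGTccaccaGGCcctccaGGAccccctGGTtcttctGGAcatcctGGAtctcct
Col2a1: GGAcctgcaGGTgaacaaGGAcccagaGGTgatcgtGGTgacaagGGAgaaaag
Col9a2: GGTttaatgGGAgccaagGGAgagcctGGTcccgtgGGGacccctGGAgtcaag
Col7a1: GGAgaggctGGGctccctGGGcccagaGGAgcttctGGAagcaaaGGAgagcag
Col4a1: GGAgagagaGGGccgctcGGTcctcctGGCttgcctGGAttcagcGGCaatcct
Each holds 6 repeats that open with a glycine codon by this choice, so the exons shown do not compare the regularity of the helices. The helices of the type IV and VII chains are less regular than those of the fibrillar collagens.

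Total counts lay between 24996524 and 31393917 per library. Values are CPM, the counts scaled by edgeR to equal library size with its TMM factors, unless a sentence says otherwise. The spread among mice is given as the biological coefficient of variation (BCV) that edgeR fits within the genotypes. The targeted gene, Glis2, had 21.7, 23.2 and 19.6 CPM in Glis2+/+ replicates 1, 2 and 3 and 10.1, 17.0 and 16.3 CPM in Glis2-/- replicates 1, 2 and 3, so that transcripts of the locus remained. Its log2 fold change was -0.57 (SE 0.22, edgeR adjusted p = 0.906), no Glis2-/- library reached a Glis2+/+ one, and on the deposited log2(TPM + 1) scale its difference was -0.02. Which exons the allele removes was not examined here. Summed markers of basal cells lay between 4683 and 7696 CPM and those of luminal cells between 3976 and 7072 CPM, so that both epithelial types were found in every library. Fibroblast markers, chosen without collagens, were also present, at 937 to 1885 CPM, and endothelial markers at 160.2 to 779 CPM.

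Collagens took a large and variable part of the RNA. Their counts made up 2.01%, 0.905% and 1.83% of all counts in Glis2+/+ replicates 1, 2 and 3 and 1.44%, 1.02% and 1.87% in Glis2-/- replicates 1, 2 and 3. The range within Glis2+/+ mice contained all 3 Glis2-/- values. The 44 genes were unequal contributors. Per length, in TPM, which corrects the counts for transcript length, Col4a1, a chain of the basement membrane network, had the highest mean over the 6 libraries, at 186 ± 57.6 (SD, n = 6), followed by the fibrillar Col3a1 at 155 ± 83.7 and by Col4a2 at 82.2 ± 25.3. Then came Col1a1 at 55.2 ± 29.2, the FACIT collagen Col16a1 at 47.2 ± 4.76 and Col1a2 at 39.7 ± 19.4. These 6 genes held 71.1% of the collagen TPM. Neighbours in this order often changed places, since Col4a1 exceeded Col3a1 in 4 of 6 libraries and Col1a1 exceeded Col16a1 in 3 of 6. Col18a1 (33.1 ± 9.48), which carries heparan sulfate chains in the basement membrane, exceeded Col14a1 (24.0 ± 3.54) in all 6. Col7a1 (19.7 ± 4.35) and Col17a1 (16.3 ± 2.53) stood next, and the first 10 genes together held 82.8%. Gm23935 alone took 83.0% to 85.7% of all TPM, which lowers the TPM of every other gene.

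No collagen separated the genotypes beyond the spread between mice in the main test. With edgeR's quasi-likelihood test, 0 of 44 collagen genes had an adjusted p of at most 0.05 together with a log2 fold change of at least 0.58 in size, and this was also so for 0% of the 21236 genes tested. The smallest adjusted p of a collagen was 0.906. At an unadjusted p of at most 0.05 there were 3 collagens, Col2a1, Col9a2 and Col9a3, all higher in Glis2-/- mice, where 5.32% of all genes tested passed, 2.99% higher and 2.33% lower. With DESeq2 and apeglm shrinkage, the procedure of the study's methods, 1 collagen, Col2a1, was called, where 0.197% of 23402 genes were. Of the 44 collagens, 20 had a positive and 24 a negative fold change for Glis2-/- against Glis2+/+, the median log2 fold change was -0.03, and the median of all genes tested was 0.01. The collagen median rested on single libraries, being -0.40 without Glis2-/- replicate 3 (17 positive, 27 negative), -0.12 without Glis2+/+ replicate 2 and between -0.02 and 0.05 without any 1 of the others. The CPM values of the genotypes did not overlap for 2 collagens (4.55%), both higher in Glis2-/- mice, against 6.23% of all genes tested that were higher and 5.5% that were lower without overlap.

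**Figure D1:**
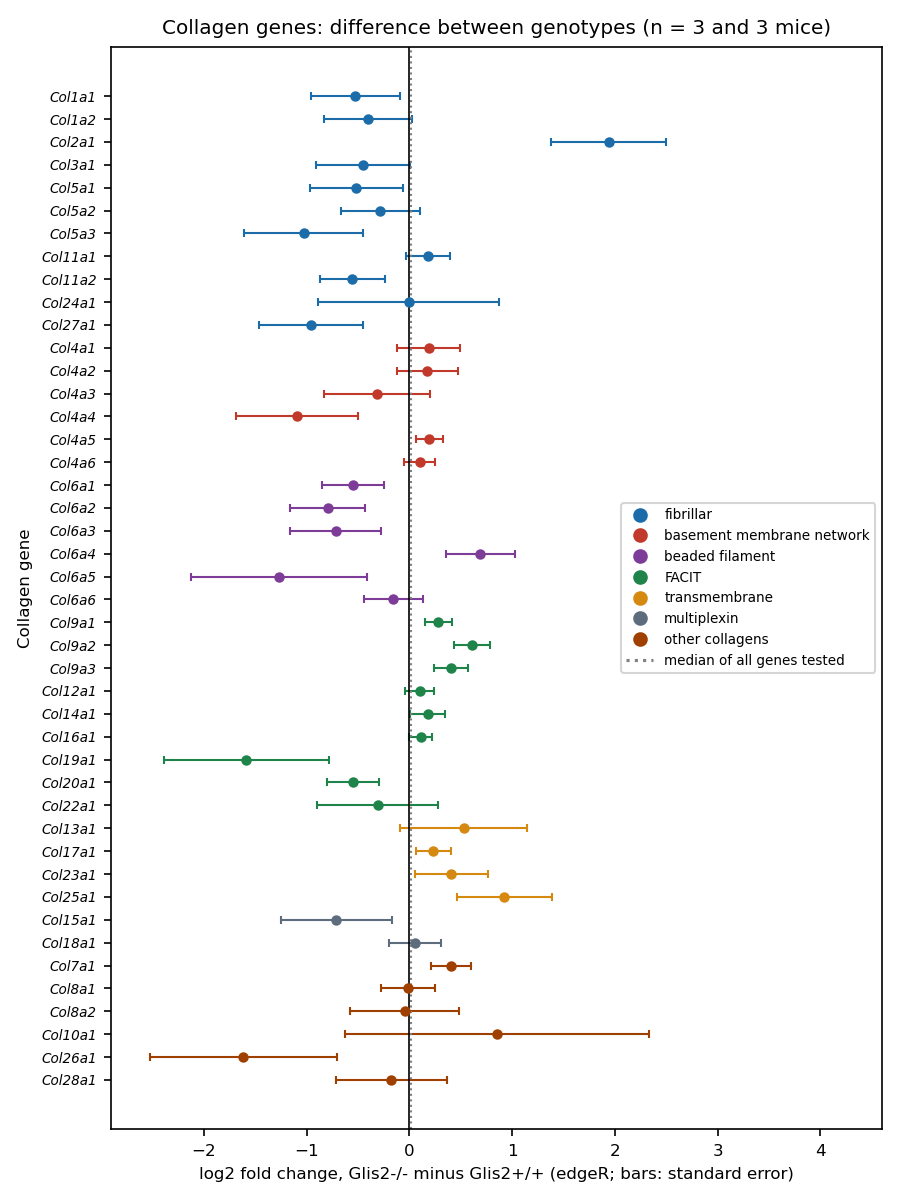
Log2 fold change of each of the 44 collagen genes for Glis2-/- minus Glis2+/+ mice (edgeR, 3 libraries per genotype), with bars for the standard error, colours for the collagen class and a dotted line at the median of all genes tested. The largest positive value is that of Col2a1, at 1.94, 9 of 11 fibrillar genes lie below 0, and the bars of the most weakly expressed genes, such as Col10a1, are the widest.

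Among the 11 fibrillar genes, 9 had a negative and 2 a positive fold change, with a median of -0.45 on the log2 scale, and none passed the edgeR test. That median was -0.78 without Glis2-/- replicate 3, -0.77 without Glis2+/+ replicate 2 and -0.19 without Glis2-/- replicate 2. Col1a1 and Col1a2 encode the chains of collagen I, the main fibril protein of the stroma. Col1a1 had 2125, 669.8 and 2180.4 CPM in Glis2+/+ replicates 1, 2 and 3 and 1124, 711 and 1622 CPM in Glis2-/- replicates 1, 2 and 3. Its second wild-type library lay below every knockout library and the other two above them, so that the log2 fold change of -0.53 had a standard error of 0.43. Col1a2 followed the same order of libraries, with 1329.7, 439 and 1349 CPM in Glis2+/+ and 789, 458 and 1106 CPM in Glis2-/- mice (log2 fold change -0.41, SE 0.43). Col3a1, whose chain forms collagen III and joins collagen I in fine fibrils, had 3689.8, 1079 and 3943 CPM in Glis2+/+ and 2151, 1277 and 2943 CPM in Glis2-/- mice (-0.45, SE 0.45). The 3 genes thus moved together from mouse to mouse.

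Collagen V starts and limits the width of collagen I fibrils, and its chains had the same 2 wild-type libraries on top. Col5a1 had 521, 146 and 496 CPM in Glis2+/+ replicates 1 to 3 and 259, 166 and 388 CPM in Glis2-/- replicates 1 to 3 (log2 fold change -0.52, SE 0.46). Col5a2 had 299.6, 109 and 287 CPM against 196, 119.9 and 256 CPM (-0.28, SE 0.38). The wild-type values again lay on both sides of the knockout values. Col5a3, the third chain of collagen V, had a wider range, with 195, 46.2 and 208 CPM against 69.2, 32.8 and 118 CPM (-1.03, SE 0.58), and Col27a1, a fibrillar collagen of cartilage, had 70.9, 20.4 and 79.2 CPM against 28.9, 15.3 and 43.8 CPM (-0.95, SE 0.51). Both had 2 wild-type libraries above all knockout ones and the other among them. Col24a1, at 0.192 to 2.46 CPM, was too low for its fold change of -0.01 (SE 0.88) to be read.

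Collagens II, IX and XI share the fibrils of cartilage, where collagen II is the core, collagen XI is buried in it and collagen IX decorates the surface. Col2a1 had 7.45, 1.75 and 2.99 CPM in Glis2+/+ replicates 1, 2 and 3 and 13.4, 8.85 and 24.7 CPM in Glis2-/- replicates 1, 2 and 3, from 230, 50 and 78 counts and 335, 265 and 774 counts. Every knockout library exceeded every wild-type library, the knockout values themselves differing by more than the gap between the genotypes. The log2 fold change was 1.94 (SE 0.56), the edgeR adjusted p 0.906 and the DESeq2 adjusted p 0.0316. Leaving out 1 library at a time from DESeq2 gave log2 fold changes of 1.44 to 2.71 and ended the call without Glis2+/+ replicate 2 (DESeq2 adjusted p = 0.153), Glis2+/+ replicate 3 (0.364), Glis2-/- replicate 1 (0.261) or Glis2-/- replicate 3 (0.437). The gene stood at a mean of 4.07 ± 3.00 CPM in Glis2+/+ and 15.7 ± 8.18 CPM in Glis2-/- mice (SD, n = 3 each), far below collagens I and III.

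The 3 collagen IX genes all had higher means in Glis2-/- mice, with a narrower spread than Col2a1. Col9a2 had 163, 108 and 107 CPM in Glis2+/+ replicates 1, 2 and 3 and 189, 173 and 215 CPM in Glis2-/- replicates 1, 2 and 3, without overlap between the genotypes. Its log2 fold change was 0.61 (SE 0.18, edgeR adjusted p = 0.906, DESeq2 adjusted p = 0.238). Col9a3 had 118, 94.7 and 74.1 CPM against 129.5, 117 and 134 CPM (0.40, SE 0.16, edgeR adjusted p = 0.906). The genotypes of Col9a3 overlapped by 1 wild-type library, replicate 1. Col9a1 had 113, 83.2 and 92.1 CPM against 110.3, 114 and 126 CPM (0.28, SE 0.13, edgeR adjusted p = 0.906). The collagen XI chains differed in sign, Col11a1 having 269, 153 and 191 CPM against 239, 185 and 269 CPM (0.18, SE 0.21) and Col11a2 5.32 to 8.36 CPM against 3.32 to 6.01 CPM (-0.55, SE 0.32). On the log2(TPM + 1) scale Col11a2 turned to 0.01 and the genotypes of Col2a1 and Col9a2 overlapped, while their differences, with those of Col9a1 and Col9a3, stayed positive. The 6 libraries had the same order in Col9a2 and in the summed basal cell markers, which lay at 6011, 5540.2 and 4683 CPM in Glis2+/+ and 6684, 6398 and 7696 CPM in Glis2-/- mice, without overlap. All 10 basal markers had a positive fold change, 6 of them at an unadjusted p of at most 0.05, and their part in the collagen IX values was not tested.

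**Figure D2:**
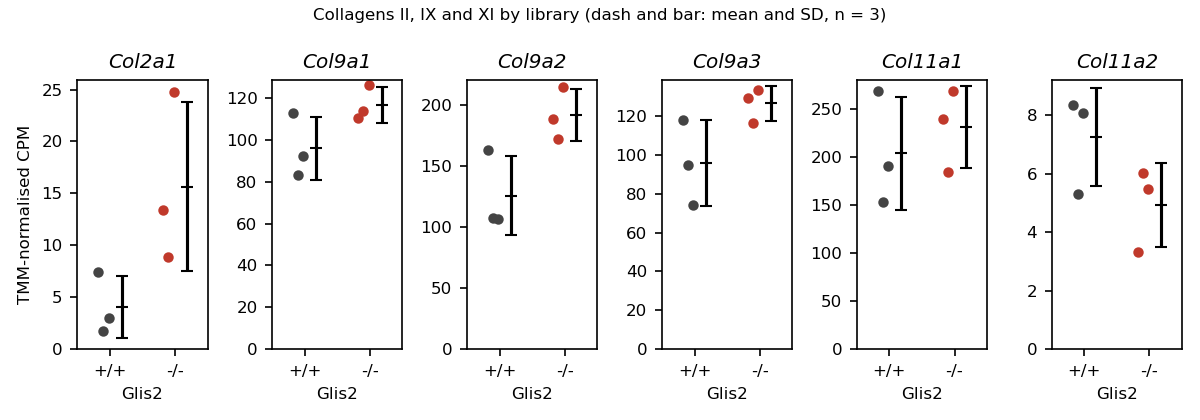
TMM-normalised CPM of the genes of collagens II, IX and XI in each library, 1 panel per gene with its own axis from 0, grey points for Glis2+/+ and red points for Glis2-/- mice, with a dash and bar for the mean and SD of 3 mice. Knockout points lie above all wild-type points for Col2a1 and Col9a2, and the genotypes overlap for the other 4 genes.

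The other FACIT collagens that were well expressed varied little. Col16a1, which is found beside fibrils and near basement membranes, had 868, 769 and 701 CPM in Glis2+/+ replicates 1, 2 and 3 and 790.1, 791 and 941 CPM in Glis2-/- replicates 1, 2 and 3. It varied by 1.34-fold over the libraries, less than any other collagen, and its log2 fold change of 0.11 (SE 0.11) turned to -0.17 on the log2(TPM + 1) scale. Col14a1, a FACIT collagen that binds decorin on fibrils, had 679, 506 and 477 CPM against 587, 534 and 760.4 CPM (0.18, SE 0.17), and Col12a1, its close relative, stayed between 76.7 and 108 CPM (0.10, SE 0.14). Neither separated the genotypes. Col20a1, at 11.9 to 22.4 CPM, had a log2 fold change of -0.55 (SE 0.25), and Col22a1 and Col19a1 lay under 3 CPM in every library. Of the 9 FACIT genes, 6 had a positive fold change, the median was 0.11 (0.0002 without Glis2-/- replicate 3), and the median fold between the highest and the lowest library was 1.80.

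Type IV collagens form the network of all basement membranes. Col4a1 and Col4a2, which make up the common heterotrimer, lie head to head on chromosome 8, the annotated genes overlapping by 22 bases at their starts. Col4a1 had 3634, 1503 and 2824 CPM in Glis2+/+ replicates 1, 2 and 3 and 2939.8, 2188 and 3938 CPM in Glis2-/- replicates 1, 2 and 3 (log2 fold change 0.19, SE 0.31). Col4a2 had 1886, 845 and 1467 CPM against 1553, 1123 and 2062 CPM (0.17, SE 0.29). The libraries had the same order in both genes, from Glis2-/- replicate 3 down to Glis2+/+ replicate 2, and the genotypes were interleaved. Col4a5 and Col4a6, chains of a network found under basal epithelium and smooth muscle, also lie head to head, 1308 bases apart on the X chromosome. Col4a5 had 251, 331 and 296 CPM against 357, 354 and 294 CPM (0.19, SE 0.13), and Col4a6 had 127.5, 192 and 164 CPM against 163, 190.3 and 165 CPM (0.10, SE 0.15). Here Glis2+/+ replicate 1, among the highest for Col4a1, was the lowest for both genes.

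The TPM ratio of Col4a1 to Col4a5 ran from 9.01 to 25.4 over the libraries, against 2.10 to 2.40 for Col4a1 to Col4a2 and 1.45 to 2.02 for Col4a5 to Col4a6. The chains of each of these pairs therefore kept their proportion more closely than the 2 pairs did to each other. Col4a3 and Col4a4, the remaining head-to-head pair, lie 71 bases apart, and their TPM ratio ran from 0.259 to 6.42. They were low, at 1.07 to 3.11 and 1.51 to 8.44 CPM, with log2 fold changes of -0.31 (SE 0.52) and -1.09 (SE 0.59). The signs for Col4a2 and Col4a6 turned negative and that for Col4a3 positive on the log2(TPM + 1) scale, where the median of all genes was -0.06.

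Collagen VI, a filament of the tissue next to cells, had its 3 common chains lower on average in Glis2-/- mice. Col6a1 had 221, 123 and 229 CPM in Glis2+/+ replicates 1, 2 and 3 and 127, 84.2 and 179.8 CPM in Glis2-/- replicates 1, 2 and 3 (log2 fold change -0.55, SE 0.30). Col6a2 had 272, 122 and 299 CPM against 128, 83.2 and 188 CPM (-0.80, SE 0.36, edgeR adjusted p = 0.906). Col6a3, the long chain, had 463, 148 and 484 CPM against 218, 129 and 319 CPM (-0.72, SE 0.45). In all 3 genes the second wild-type library lay among the knockout libraries and the other wild-type libraries above them. Leaving out that library therefore had to separate the genotypes for all 3 genes, each lower in Glis2-/- mice. Of all genes, 11.5% were then lower and 11.7% higher without overlap. The remaining chains of this family had values of 0.298 to 6.19 CPM for Col6a5 (-1.27, SE 0.85), 25.8 to 53.8 CPM for Col6a6 (-0.16, SE 0.29) and 5.76 to 15.98 CPM for Col6a4, the only one with a positive sign (0.69, SE 0.33). The median over the 6 genes was -0.63, with -0.98 without Glis2-/- replicate 3 and -0.38 without Glis2-/- replicate 2, and none passed the edgeR test.

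**Figure D3:**
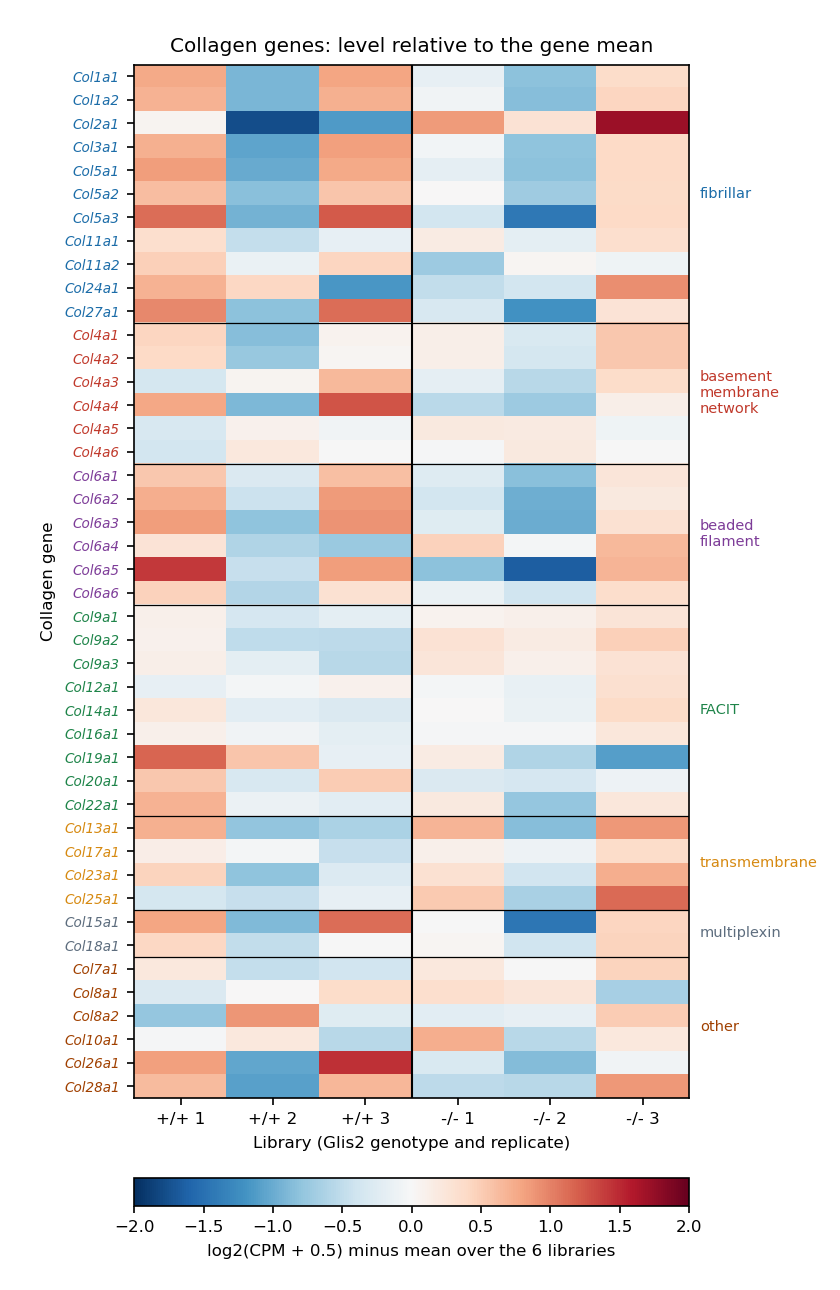
Level of each of the 44 collagen genes in each library, as log2(CPM + 0.5) minus the mean of the gene over the 6 libraries, in rows grouped by class, with a line between the 3 Glis2+/+ and the 3 Glis2-/- libraries. Replicate 2 of Glis2+/+ and replicate 2 of Glis2-/- are blue for most fibrillar and beaded filament genes, while the rows of Col16a1, Col12a1, Col4a5 and Col4a6 are nearly white.

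The collagens of the epithelial anchor had small positive differences. Collagen VII forms the anchoring fibrils below the basement membrane, and Col7a1 had 655, 407 and 433 CPM in Glis2+/+ replicates 1, 2 and 3 and 653, 563 and 765 CPM in Glis2-/- replicates 1, 2 and 3 (log2 fold change 0.41, SE 0.19, edgeR adjusted p = 0.906). Col17a1, the transmembrane collagen of hemidesmosomes, had 438, 389 and 291 CPM against 428, 371 and 515 CPM (0.23, SE 0.17). Neither gene separated the genotypes. The summed basal markers given above, higher in Glis2-/- mice for 10 of 10 genes with a median log2 fold change of 0.42, had the same direction as both genes and as 6 of the 8 hemidesmosome partners below, and their part in these values was not tested. The other transmembrane collagens, Col13a1 (1.70 to 6.77 CPM), Col23a1 (21.1 to 62.1 CPM) and Col25a1 (2.5 to 9.81 CPM), also had positive fold changes, which ranged from 0.41 to 0.93 with standard errors of 0.35 to 0.62. The median of this class of 4 was 0.47, and it was 0.14 without Glis2-/- replicate 3, 0.84 without Glis2+/+ replicate 1 and 0.12 on the log2(TPM + 1) scale.

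The multiplexins are basement membrane collagens with interrupted helices. Col15a1, which links the basement membrane to fibrils, had 280.4, 88.2 and 352 CPM in Glis2+/+ replicates 1, 2 and 3 and 161, 59.6 and 219 CPM in Glis2-/- replicates 1, 2 and 3 (log2 fold change -0.71, SE 0.54). Col18a1, the source of endostatin, had 715, 383 and 533 CPM against 551, 407 and 734 CPM (0.05, SE 0.26), and its sign turned to -0.10 on the log2(TPM + 1) scale. In the first gene the 4 highest libraries had the order seen for collagen I, and in the second all 6 had that seen for Col4a1. Part of Col18a1 is overlapped on the opposite strand by Slc19a1. Of the short-chain and remaining collagens, Col8a1 had 80.3 to 164 CPM (-0.01, SE 0.26), Col28a1 5.81 to 24.0 CPM (-0.18, SE 0.54) and Col8a2 1.52 to 5.85 CPM (-0.05, SE 0.53). Closest to the count threshold were Col10a1, with 7, 10 and 0 counts in Glis2+/+ and 18, 0 and 11 counts in Glis2-/- mice, which passed in exactly 3 libraries, and Col26a1, at 0.210 to 3.49 CPM, which passed in 4. No collagen fell just outside it.

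Many collagens shared an order of libraries. In 15 of the 44 genes (34.1%), Glis2+/+ replicates 1 and 3 were the 2 highest libraries and Glis2-/- replicate 3 came next, an order held by 3.21% of all genes tested. They were Col1a1, Col1a2, Col3a1, Col5a1, Col5a2, Col5a3, Col27a1, Col6a1, Col6a2, Col6a3, Col6a5, Col15a1, Col20a1, Col26a1 and Col4a4. In 9 others (20.5%), Glis2-/- replicate 3 was the highest, followed by Glis2+/+ replicate 1 and Glis2-/- replicate 1, as in 2.07% of all genes tested. These were Col4a1, Col4a2, Col18a1, Col7a1, Col17a1, Col11a1, Col14a1, Col13a1 and Col23a1. Both orders were picked after the values were seen and serve as a description, and 18 genes (40.9%) had neither of them and overlapped between the genotypes. The lowest library was replicate 2 of either genotype for 29 of the 44 genes (65.9%), as for 36.2% of all genes tested.

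The spread between mice was wide for collagens of high level. Among genes with a mean of at least 20 CPM, where counting error is small, the BCV had a median of 26.4% for 28 collagens and 15.1% for 7438 genes. The highest library exceeded the lowest by a median of 2.26-fold in these collagens and 1.36-fold in these genes. Over all 44 collagens the median was 2.92-fold, with 3.58-fold for fibrillar, 3.18-fold for beaded filament and 2.53-fold for type IV genes. Col1a1, at a BCV of 37.3%, and Col3a1, at 39.1%, varied more than Col16a1 (13.5%), Col4a5 (14.3%), Col9a1 (14.4%) or Col17a1 (17.3%). With this spread and 3 mice per genotype, a difference of the size found for Col1a1 could not be told from 0.

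**Figure D4:**
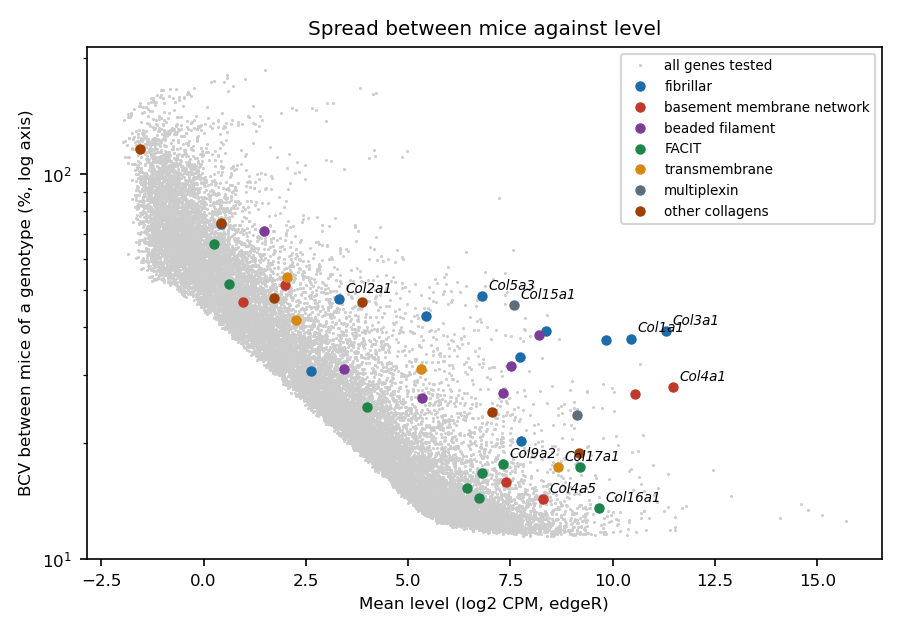
Spread among mice within the genotypes (BCV in %, log axis) against the mean level (log2 CPM) of the 21236 genes tested in grey, with the collagens coloured by class. At levels where most genes lie near the lower edge, Col1a1, Col3a1, Col5a3 and Col15a1 lie well above it, and Col16a1, Col4a5, Col17a1 and Col9a2 lie closer to it.

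Sums over the classes showed the same. The 11 fibrillar genes summed to 8517, 2671 and 8744 CPM in Glis2+/+ replicates 1, 2 and 3 and to 4873, 2980.4 and 6777 CPM in Glis2-/- replicates 1, 2 and 3. The type IV genes summed to 5905, 2875 and 4764 CPM against 5016, 3858 and 6465 CPM, the beaded filament genes to 1028, 427 and 1070.1 CPM against 524, 336 and 756 CPM, and the FACIT genes to 2046, 1659.8 and 1566 CPM against 1904, 1818 and 2300.3 CPM. Every class overlapped between the genotypes. As shares of the collagen TPM of each library, in contrast, type IV genes took 33.8%, 36.0% and 31.4% in Glis2+/+ and 40.1%, 38.1% and 39.2% in Glis2-/- mice, and beaded filament genes took 4.13%, 4.05% and 4.67% against 2.94%, 2.75% and 3.08%. These were the 2 classes of 7 whose shares did not overlap, whereas the fibrillar share ran from 26.4% to 45.6% in Glis2+/+ and from 27.0% to 33.3% in Glis2-/- mice. Shares of one whole depend on each other, and no test was made on them.

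Markers of other cell types moved with these sums. All 12 fibroblast markers were measured, none was at 0 in any library, and their sum was 1636, 937 and 1679 CPM in Glis2+/+ replicates 1, 2 and 3 and 1547, 1196 and 1885 CPM in Glis2-/- replicates 1, 2 and 3. The 8 endothelial markers, also above 0 in every library although CD31 was stained for the sort, summed to 763, 160.2 and 545 CPM against 492, 253 and 779 CPM. Both sums were lowest in Glis2+/+ replicate 2 and next lowest in Glis2-/- replicate 2, as were those of the fibrillar and type IV collagens. The 7 pericyte markers, none at 0, summed to 600.1, 338 and 487 CPM against 341, 321 and 460.5 CPM, and all 7 had a negative fold change. Fibroblast markers were split evenly, with 6 positive and 6 negative fold changes and a median of 0.02, where the fibrillar collagens had a median of -0.45. With the fibroblast marker level as a covariate in edgeR, the fibrillar median was -0.58, the beaded filament median -0.78 and 0 collagens were called. In bulk RNA, fewer cells of a type and less RNA per cell cannot be told apart, and the part of these cells in the collagen values was otherwise not tested.

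**Figure D5:**
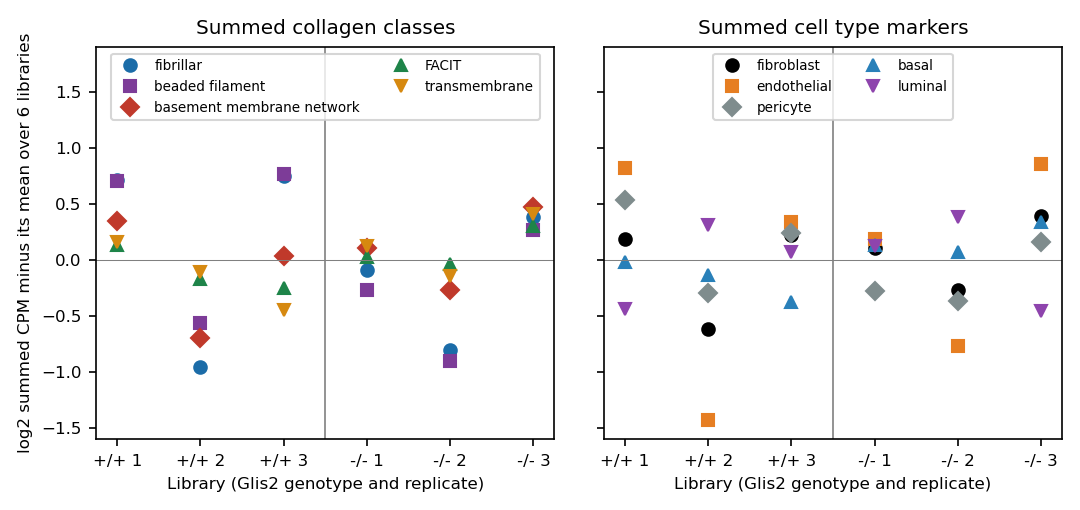
Log2 of summed CPM minus its mean over the 6 libraries, for 5 collagen classes (left) and for markers of 5 cell types (right), 1 position per library, with a line between Glis2+/+ and Glis2-/- mice. Replicate 2 of each genotype is low for fibrillar and beaded filament collagens and for endothelial and fibroblast markers, and is high for luminal markers.

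Ratios between collagen genes varied to different extents over the libraries, whether or not their chains assemble together. In TPM, Col1a1 exceeded Col1a2 by 1.25-fold to 1.49-fold in the 6 libraries, and Col3a1, whose chain forms a separate trimer, exceeded Col1a1 by 2.46-fold to 2.94-fold. The ratio of Col6a1 to Col6a2 lay between 0.743 and 0.980 and that of Col6a3 to Col6a1 between 0.652 and 1.05. Among the chains of collagen IX, the ratio of Col9a1 to Col9a2 ran from 0.523 to 0.837 and that of Col9a3 to Col9a2 from 0.749 to 1.11, and that of Col5a1 to Col5a2 ran from 1.181 to 1.637. The ratio of Col17a1 to Col1a1, whose chains also belong to separate proteins, ran from 0.136 in Glis2+/+ replicate 3 to 0.612 in Glis2+/+ replicate 2.

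Genes that make, process or bind collagen gave no call either. Of 19 genes for modification and folding, 11 had a positive and 8 a negative fold change, with a median of 0.10. Serpinh1, the collagen chaperone, had 388, 224 and 332 CPM in Glis2+/+ replicates 1, 2 and 3 and 306, 219 and 364 CPM in Glis2-/- replicates 1, 2 and 3 (-0.09, SE 0.23). Of 13 tested genes for processing and cross-linking, 6 were positive and 7 negative (median -0.09), Lox, which cross-links fibrils, having 20.2, 11.0 and 18.2 CPM against 11.5, 10.3 and 15.6 CPM (-0.40, SE 0.27). Of 8 receptors, 4 were positive and 4 negative. The receptor Ddr1 of epithelial cells had 109, 125 and 112 CPM against 135, 146 and 114 CPM (0.19, SE 0.12), and Ddr2, typical of stromal cells, had 37.6, 12.5 and 47.2 CPM against 21.5, 14.8 and 34.9 CPM (-0.45, SE 0.46). Ddr2 had the order of libraries of collagen I and Ddr1 did not.

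Among 7 partners of the basement membrane, 6 had a negative fold change (median -0.28). Smoc1, a secreted calcium-binding protein of basement membranes, had 4.34, 4.31 and 5.45 CPM in Glis2+/+ replicates 1, 2 and 3 and 1.92, 1.14 and 1.63 CPM in Glis2-/- replicates 1, 2 and 3, without overlap (-1.59, SE 0.35, edgeR adjusted p = 0.856, DESeq2 adjusted p = 0.0680). Among 8 hemidesmosome partners of collagen XVII, 6 were positive (median 0.15). Dst, which encodes the plaque protein BPAG1, had 2729, 2499 and 2914 CPM against 3187, 3171 and 3112 CPM (0.22, SE 0.08, edgeR adjusted p = 0.906). Itgb4, the integrin chain of the hemidesmosome, had 198, 215 and 235 CPM against 189.9, 189.8 and 189 CPM (-0.19, SE 0.09). The genotypes overlapped for neither Dst, which was higher in Glis2-/- mice, nor Itgb4, which was lower, and neither passed the test.

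Promoter letters were compared across the family, since Glis2 encodes a zinc finger protein of the GLI-similar group. For 35 of the 44 genes RefSeq (GRCm38.p6) gave a window from 250 bases before to 50 after the start. On either strand, GACCACCCA, the core of the GLI motif, was in 0 of 35 windows and in 0.3% of 32851 windows of all genes, and TGGGGGGT was in 1, that of Col5a1, and in 1.5% of all. The GC box GGGCGG was in 22 of 35 (62.9%), against 35.7% of all windows, and CCAAT was in 13 (37.1%), against 37.4%. Such matches are descriptions of these letters in these windows. Collagens were counted by gene and the background by window, so the 2 shares are not of the same unit.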

How the data were processed

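Total RNA of epithelial cells sorted from the mammary glands of 3 Glis2+/+ and 3 Glis2-/- mice was sequenced from SMARTer stranded libraries. The authors estimated gene counts with Salmon 1.2.1 (mm10) and tximport, and deposited them as whole-number counts without normalisation. The authors also deposited TPM values as log2(TPM + 1). Groups were taken from the labels. The members, classes, marker and partner lists and the rule for named genes were chosen with earlier results of these data known. Named were 18 collagens of the main types, those with an unadjusted p of at most 0.05, a DESeq2 call or no overlap, those nearest the count threshold, and partner genes by the same p with Serpinh1, Lox, Ddr1 and Ddr2. Itgb4 and other members were named after their values were seen.

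Counts were filtered (filterByExpr), TMM-normalised and tested in edgeR 4.0.16 under R 4.3.3 (glmQLFTest) with Benjamini-Hochberg adjustment over all genes tested. DESeq2 1.42.0 with apeglm 1.24.0 and limma 3.58.1 on log2 TPM served as alternatives. P-values of collagen sums are not given, since the members were chosen with results known, and shares were not tested. Total counts of 24996524 to 31393917 per library leave little counting error for genes over 20 CPM. Functions were tested on simulated data. No library copied another (chi-square per degree of freedom of at least 20.6). Symbols, exons and positions came from GENCODE M21 (GRCm38). P-values set the difference between genotypes against the spread between mice of a genotype. The values of 1 partner gene that the rule names are not reported here.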

Additional observations from a re-analysis of the deposited data

How the results depend on the processing

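The 0 collagens called by edgeR stayed 0 with DESeq2 size factors, the count rule of the list as filter, log2 TPM in limma with offsets of 1 and 0.1, no fold threshold, the fibroblast covariate and each library left out. Col2a1 alone was called without a filter (1) and with DESeq2 (1), and DESeq2 without 1 library, chosen after seeing the data, called 0 to 2 collagens: 2 without Glis2+/+ replicate 1 (Col2a1, Col9a2), 2 without Glis2+/+ replicate 2 (Col27a1, Col6a2), 1 without Glis2-/- replicate 2 and 0 otherwise. Over all genes, DESeq2 called 46, no filter 40, the fibroblast covariate 3 and log2(TPM + 0.1) 1, against 0 in edgeR. The cause was not tested.

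The collagens without overlap were 4 on the log2(TPM + 1) scale (Col6a4 higher, Col6a5, Col20a1 and Col22a1 lower). On this scale 13.1% of all genes had no overlap, 2.51% higher and 10.6% lower. With 1 library left out there were 3 to 19 such collagens. The 19, without Glis2+/+ replicate 2, were 3 higher and 16 lower (43.2%, against 23.2% of all genes), and without Glis2+/+ replicate 1 there were 8, all higher (18.2% against 23.5%). With 1 library left out, the median ran from -0.40 to 0.05 over all collagens, from -0.78 to -0.19 for fibrillar, -0.98 to -0.38 for beaded filament, -0.090 to 0.16 for type IV, 0.0002 to 0.19 for FACIT, 0.14 to 0.84 for transmembrane, -0.67 to -0.051 for multiplexin and -0.080 to 0.13 for the other genes. The median of all genes moved to -0.06 with log2(TPM + 1) and to -0.14 with log2(TPM + 0.1).

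The same direction held in every alternative for 29 of 44 collagens. Signs turned on log2(TPM + 1) and log2(TPM + 0.1), in this order, for Col4a2 (-0.048 and -0.048), Col4a3 (0.058 and 0.29), Col4a6 (-0.039 and -0.039), Col16a1 (-0.17 and -0.18), Col18a1 (-0.10 and -0.10) and Col8a2 (0.23 and 0.67), and with the offset of 1 for Col11a2 (0.013). With the covariate they turned for Col18a1 (-0.061) and Col8a2 (0.34). With 1 library left out they turned for 13 genes, whose log2 fold changes ranged from -0.96 to 0.49 (Col24a1), -0.094 to 0.47 (Col4a1), -0.085 to 0.43 (Col4a2), -0.71 to 0.080 (Col4a3), -0.062 to 0.25 (Col4a6), -0.41 to 0.030 (Col6a6), -0.070 to 0.19 (Col12a1), -0.56 to 0.15 (Col22a1), -0.20 to 0.29 (Col18a1), -0.20 to 0.23 (Col8a1), -0.40 to 0.68 (Col8a2), -0.13 to 1.58 (Col10a1) and -0.86 to 0.080 (Col28a1).

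The labels do not say whether same-numbered mice were paired. Deviations of same-numbered libraries correlated at -0.03, 0.29 and 0.06 across genes, which cannot decide it. With the replicate block, 0 collagens were called, the collagen median was -0.07 and Col8a2 turned to 0.13. With 3 mice per genotype and a BCV of 26.4% in well-expressed collagens, small differences were not detectable.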
